A study of Mus musculus with 16 samples.

Results

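The microRNA (miRNA) content of mouse liver without tumour was profiled from the 6 samples of a 16-sample series whose titles mark them as liver controls. They were chosen by title alone, the arms with and without phenobarbital were pooled, and no contrast between the arms was made. The other 10 samples were liver tumours and serve here only as a comparison. All 16 samples came from male C3H/HeJ mice, an inbred strain prone to liver tumours. The series concerns tumours started with diethylnitrosamine (DEN), a liver carcinogen. Total RNA of each sample was hybridised to its own one-colour Agilent mouse miRNA array.

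The phenobarbital controls (3 livers, replicates 4 to 6) came from mice fed phenobarbital, a drug that promotes liver tumours in rodents. The untreated controls (3 livers, replicates 1 to 3) came from mice without phenobarbital, and "untreated" refers to that drug only. The labels describe all 6 livers as tissue without mutation and do not say whether these mice had received DEN. The tumours were 7 with a Ctnnb1 mutation, from the phenobarbital arm, and 3 with a Ha-ras mutation, from the arm without it. The labels give 27 weeks of diet for every sample. The design text gives 28 to 36 weeks of 0.05% phenobarbital after a single DEN dose of 10 or 90 µg per g at 2 or 6 weeks of age, and the treatment protocol gives 28 days in drinking water to mice 29 to 32 days old on arrival. Which of these applied to which liver is not settled. The labels do not say whether the livers of a group came from separate animals, so spreads and p-values describe these samples only.

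An array held 11540 spots that were not controls, for 1672 probes of 566 mouse miRNAs. On the 6 arrays, 11.7% to 15.7% of these spots were well above background and none was saturated. A miRNA counts as detected where over 50% of the spots of at least 1 of its probes were well above background. Levels are log2 signals scaled between arrays and averaged over a miRNA's probes, and the scale has a floor of 4.63 below which values have no order. The pool of an array is the summed linear signal of its detected miRNAs. Different miRNAs are read by different probes, so ranks and shares are of array signal and not of molecules. The brightest and dimmest probes of 1 miRNA differed by a median of 2.52-fold over the 77 miRNAs detected on all 6 arrays and by up to 27.1-fold. For 10 of those 77, 1 probe lay at the floor on all 6 arrays.

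Untreated control replicate 3 stood apart from the other livers. Over the 77 miRNAs its levels correlated with those of the other 5 arrays at Pearson's r of 0.888 to 0.928, against 0.973 to 0.994 for the 10 pairs without it. This array held miR-494, miR-690 and miR-1224 more than 1 log2 unit above every other liver, and miR-720 more than 1 unit below. Results that rest on these miRNAs are given with and without it. The cause was not tested.

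MiRNAs are very short RNAs that guide Argonaute proteins to messenger RNAs, mostly through the seed, the stretch behind the first base. A hairpin precursor gives a duplex, of which Argonaute usually keeps the guide strand and the other strand, named with a star in older nomenclature, is lost. miRNAs with the same seed form a family, and hairpins that lie close together are often cut from the same transcript. In liver, miR-122 is the hallmark miRNA of hepatocytes, where it acts on cholesterol and lipid metabolism.

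Mature sequences of the brightest miRNAs and of the families that recur in the results are shown first, since the seed groups them. They were copied from the RefSeq miRNA table (build GRCm38.p6), which gave a sequence for 67 of the 77 miRNAs detected on all 6 arrays. miR-122, miR-720, miR-23b, miR-709, miR-30d, miR-151-5p, miR-140, miR-30b, miR-689 and miR-378 are named only. Sequences run 5′ to 3′ and capitals mark the seed, bases 2 to 8. The 9 members of the let-7 family come first.
let-7f: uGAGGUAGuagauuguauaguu
let-7a: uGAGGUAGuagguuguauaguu
let-7g: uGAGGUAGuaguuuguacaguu
let-7c: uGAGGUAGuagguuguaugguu
let-7b: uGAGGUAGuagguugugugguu
let-7d: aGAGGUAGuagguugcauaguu
let-7i: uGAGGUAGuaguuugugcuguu
let-7e: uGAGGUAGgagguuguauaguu
miR-98: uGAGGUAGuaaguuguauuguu
All 9 carry the seed GAGGUAG. Over 22 aligned bases the 36 pairs of members differed at 1 to 6 positions, with a median of 3, and 4 pairs differed at 1 position only. Whether the probe for a member also captured its nearest relatives was not tested.

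The next sequences are those of other miRNAs in the top 20 by signal, of the erythroid pair miR-451 and miR-144, and of miR-494, the most variable miRNA. The miR-29 and miR-26 families are shown because all of their members were in the top 20.
miR-21: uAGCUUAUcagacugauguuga
miR-22: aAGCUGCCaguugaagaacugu
miR-451: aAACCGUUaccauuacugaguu
miR-144: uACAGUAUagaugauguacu
miR-192: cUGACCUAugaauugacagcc
miR-148a: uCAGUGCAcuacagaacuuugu
miR-126-3p: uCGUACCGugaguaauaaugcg
miR-29a: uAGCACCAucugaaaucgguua
miR-29b: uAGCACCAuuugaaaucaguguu
miR-29c: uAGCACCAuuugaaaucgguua
miR-26a: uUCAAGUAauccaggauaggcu
miR-26b: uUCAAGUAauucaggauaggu
miR-494: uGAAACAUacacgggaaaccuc
miR-29a and miR-29c differed at 1 of 22 positions, and miR-29a and miR-29b at 4. miR-26a and miR-26b differed at 2 of 21 positions.

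The liver pool was concentrated in a small number of miRNAs. Of the 566 mouse miRNAs, 77 (13.6%) were detected on all 6 arrays, 47 on 1 to 5 arrays and 442 (78.1%) on none. An array detected 85 to 102 miRNAs, with a median of 96. The 77 held 98.8% of the pool. Added up in order of mean level, mean shares over the 6 arrays reached 50% with 3 miRNAs and 90% with 32. Single arrays can need other counts. The count of 32 also depends on this order. miR-494, at rank 37, had a mean share of 1.70%, mostly from untreated control 3. The 10 brightest miRNAs of each array held 74.5% ± 0.770 (SD, n = 6) of its pool.

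Levels among the 77 ran from 14.13 for miR-122 to 5.08 for miR-139-5p, whose level includes a probe at the floor, so the full range of signal is not given as a fold. The 8 miRNAs with a mean level over 10 held 70.0% of the pool, the 17 with a level of 8 to 10 held 17.4%, the 31 with a level of 6 to 8 held 9.54% and the 21 below 6 held 1.81%. The steep upper end and the long flat tail are visible in the plot of the 30 brightest miRNAs.

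**Figure D1:**
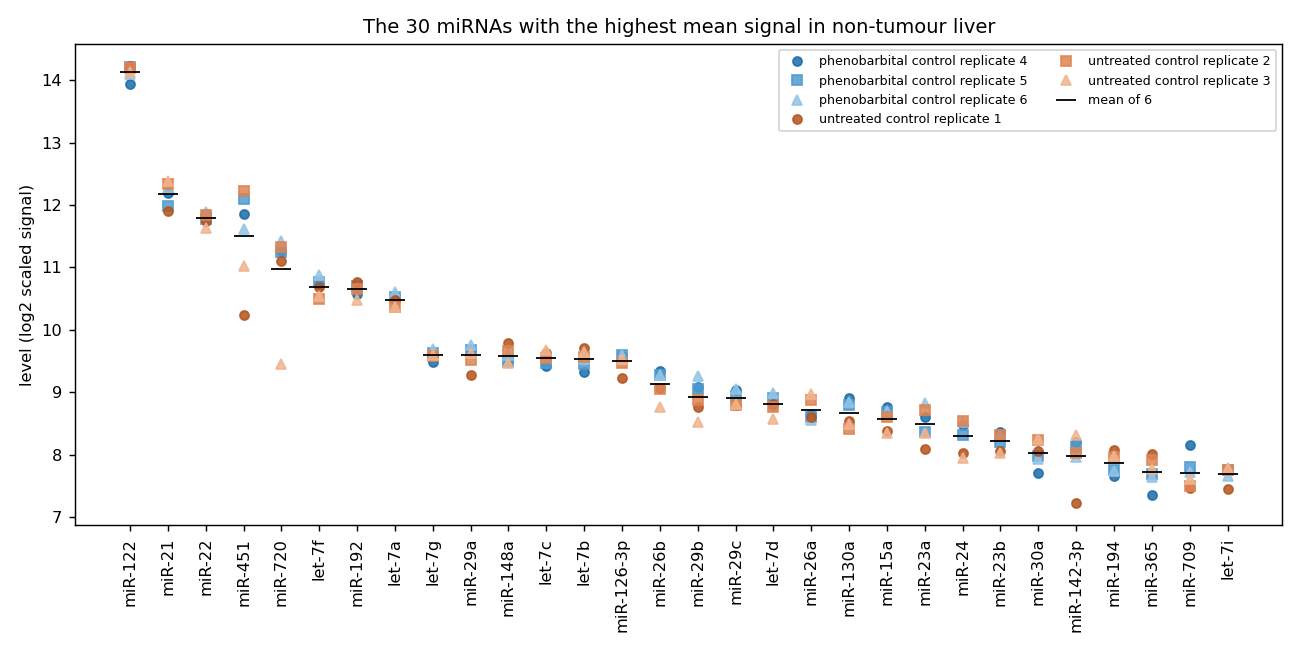
The vertical axis gives the level (log2 scaled signal) of the 30 miRNAs with the highest mean in non-tumour liver, in rank order; each symbol is 1 of the 6 arrays and the bar is their mean. miR-122 lay at 13.94 to 14.23 above all others, and miR-451 and miR-720 had the widest spread among the first 10.

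miR-122 was the brightest miRNA on every array. Its level was 13.94, 14.21 and 14.10 in phenobarbital controls 4, 5 and 6 and 14.23, 14.20 and 14.13 in untreated controls 1, 2 and 3, a mean of 14.13 ± 0.11 (SD, n = 6). Its share of the pool was 34.8% ± 2.77, from 31.8% in phenobarbital control 4 to 39.7% in untreated control 1. On all 6 arrays the dimmer of its 2 probes was above the brighter probe of miR-21, so its first place did not depend on the probe.

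miR-21, a miRNA of many cell types known for its rise in injury and cancer, ranked second. Its level ranged from 11.90 to 12.38 with a median of 12.23, and its share was 8.98% ± 0.969. miR-22, an abundant miRNA of hepatocytes and muscle, followed at 11.63 to 11.89 with a median of 11.81 and a share of 6.84% ± 0.526. The order of miR-21 over miR-22 held on all 6 arrays, but on none of them was the dimmer probe of miR-21 above the brighter probe of miR-22.

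miR-451 and miR-720, at ranks 4 and 5, had the largest SDs among the 20 brightest miRNAs. miR-451, a red blood cell miRNA whose hairpin is cut by Argonaute 2 in place of Dicer, had levels of 11.85, 12.09, 11.62, 10.24, 12.22 and 11.02 in phenobarbital controls 4 to 6 and untreated controls 1 to 3. miR-720, an entry later withdrawn from miRBase as a probable transfer RNA fragment, lay at 11.11 to 11.42 in 5 livers and at 9.46 in untreated control 3. Its mean was 10.97 ± 0.75 (SD, n = 6), and 11.27 without that liver. Its 2 probes differed by 7.17-fold.

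let-7f, miR-192 and let-7a closed the group above a level of 10. let-7f had a mean of 10.68 ± 0.14 and miR-192, a miRNA of liver, gut and kidney, 10.66 ± 0.11, and these 2 did not differ beyond their spread. let-7a was lower at 10.48 ± 0.10, below miR-192 on all 6 arrays. A gap of 0.88 then separated let-7a from let-7g, the ninth.

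Below that gap, let-7g, miR-29a, miR-148a, let-7c, let-7b and miR-126-3p had means from 9.60 down to 9.50 and could not be ordered. miR-148a is known in liver for its role in lipoprotein handling, and miR-126-3p is the endothelial miRNA made from an intron of Egfl7. Ranks 15 to 20 were held by miR-26b (9.14 ± 0.21), miR-29b (8.93 ± 0.26), miR-29c (8.91 ± 0.12), let-7d (8.81 ± 0.14), miR-26a (8.71 ± 0.17) and miR-130a (8.67 ± 0.21). Of the 20 gaps between neighbours from rank 1 to rank 21, 6 were larger than the SD of the difference, and the same 6 kept their order on all arrays. The membership of the top 10 also varied: let-7a, let-7f, miR-122, miR-192, miR-21, miR-22 and miR-451 were in it on all 6 arrays, and 15 miRNAs were in it on at least 1.

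Levels of the 77 miRNAs were similar among the 6 livers for most members. The median SD was 0.18 log2 units, 44 miRNAs had an SD under 0.2 and 8 an SD over 0.5. The steadiest by SD was miR-30b at 0.01, where the first probe lay at the floor on all 6 arrays and the other at 7.42 to 7.47. let-7g (0.07), miR-93 (0.08), miR-139-5p (0.08) and miR-98 (0.09) came next, and miR-93 and miR-139-5p also had a probe at the floor throughout. The dimmest of the 77 were miR-93 at 5.12, miR-19a at 5.12 and miR-139-5p at 5.08, close to the floor of 4.63.

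Grouped by family, the pool was led by miR-122, which has no relative on the array, and by let-7. The 25 family lists used here hold 82 miRNAs and together made up 66.1% ± 3.45 of the pool. They list main strands only, without star strands, so family counts leave out the partner strands. Over all 566 miRNAs on the array, 13.6% were detected on all 6 arrays. By seed, the 67 miRNAs with a sequence had 43 different seeds, and 10 seeds were shared by more than 1 miRNA. Those 10 shared seeds covered 34 miRNAs and 21.5% of the pool. A further 40.8% of the pool came from the 10 miRNAs without a sequence, most of it from miR-122.

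The let-7 family, which restrains cell growth genes such as Ras and Myc and rises as tissues mature, was complete in its main strands. All 9 were detected on all 6 arrays, against 13.6% of all miRNAs on the array. Together they held 11.8% ± 0.820 of the pool, from 10.6% in untreated control 2 to 12.8% in untreated control 1. Within the family the levels ran from let-7f at 10.68 through let-7i at 7.70 ± 0.13 and let-7e at 5.92 ± 0.30 to miR-98 at 5.48 ± 0.09.

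The miR-29 family, which targets collagen and other matrix genes, was complete with 3 of 3 members and held 3.38% ± 0.373. The miR-26 family (2 of 2 members) held 1.91% ± 0.120. The miR-30 family (5 of 5 members), abundant in epithelial organs, held 1.20% ± 0.125, led by miR-30a at 8.03 ± 0.20. The miR-101 family (2 of 2) held 0.747% ± 0.0639 and the family of miR-103 and miR-107 (2 of 2), linked to insulin signalling in liver, held 0.431% ± 0.0655.

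Several families were represented by a dominant member. In the family of miR-192 and miR-215, miR-192 was detected on all 6 arrays and miR-215 on none. Of miR-148a and its relatives, miR-148a was detected on all 6, miR-148b on 3 and miR-152 on 1. miR-130a was detected on all 6 and its family member miR-301a on 2 arrays. Of the miR-125 family, which shares a seed with the worm regulator lin-4, only miR-125b-5p (6.67 ± 0.16) was detected, and of the miR-34 and miR-449 family, only miR-34a was. miR-221 was detected on all 6, at 5.42 ± 0.16, and its partner miR-222 on none.

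The miR-15/16 family, which restrains the cell cycle, had 5 of 6 members on all 6 arrays and held 1.60% ± 0.197. It was led by miR-15a at 8.58 ± 0.18, followed by miR-16 at 7.30 ± 0.21 and miR-15b at 7.29 ± 0.33. miR-322, the remaining member, was detected on 4 arrays. The growth-promoting family of miR-17, miR-20, miR-93 and their relatives had 4 of 6 members on all 6 arrays but held only 0.381% ± 0.0284 of the pool. No member of the miR-18 family (0 of 2) or the miR-181 family (0 of 4) was detected on any of the 6 arrays, where 78.1% of all 566 miRNAs were not detected either.

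**Figure D2:**
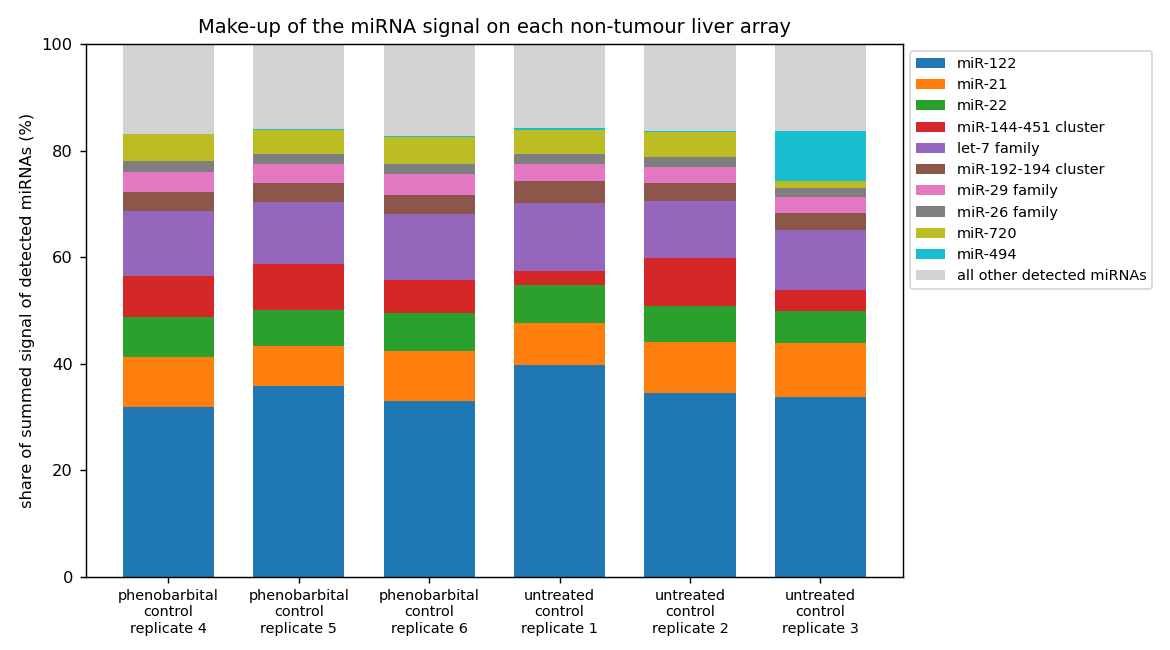
Each bar is the summed signal of the miRNAs detected on 1 of the 6 arrays, set to 100%, and the colours are single miRNAs, families or clusters. miR-122 filled 31.8% to 39.7%, let-7 10.6% to 12.8% and the miR-144-451 cluster 2.61% to 9.12%; the band of miR-494 is wide in untreated control replicate 3, where it reached 9.40%, and at most 0.247% elsewhere.

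Hairpins that are neighbours in the genome had different signals in some groups and signals that could not be ordered in others. In the RefSeq table (GRCm38.p6), hairpins of 33 of the 67 miRNAs with a sequence lay in 17 groups with gaps of at most 10000 bases on the same strand. The 10 miRNAs without a sequence could not be placed, so the groups are incomplete. For example, miR-23b is missing beside miR-27b and miR-24, and miR-30b and miR-30d form no group. The range of mature levels within a group had a median of 1.38 log2 units and ran from 0.01 to 5.20. A mature sequence that several hairpins can give, such as let-7f, let-7c, miR-16 or miR-24, cannot be assigned to 1 of them, so such groups describe sums over loci.

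The pair miR-144 and miR-451 on chromosome 11, within 161 bases of each other and both erythroid, differed by 25.0-fold in signal, with miR-144 at 6.86 ± 0.79 and miR-451 at 11.51 ± 0.75. Both varied together: their 6 arrays fell in the same order, highest in untreated control 2 and lowest in untreated control 1. The pair miR-194 and miR-192 on chromosome 19, within 220 bases, differed by 6.92-fold, and miR-194, a hepatocyte and gut miRNA, had a level of 7.87 ± 0.17. In the group let-7d, let-7f and let-7a on chromosome 13 the range was 3.67-fold, and between miR-99a and let-7c on chromosome 16 it was 12.0-fold.

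Other neighbours could not be ordered, since their mean difference was smaller than its spread between livers. The log2 difference was 0.01 ± 0.06 (SD, n = 6) for let-7c minus let-7b on chromosome 15, 0.03 ± 0.17 for miR-29b minus miR-29c on chromosome 1 and 0.02 ± 0.10 for miR-497 minus miR-195 on chromosome 11. For miR-15b minus miR-16 on chromosome 3 it was -0.01 ± 0.30, from -0.46 to 0.32 in single livers. Such values compare different probes, which differ by a median of 2.52-fold even within a miRNA, and do not show equal amounts. Of these miRNAs, let-7c, miR-29b and miR-16 have a hairpin elsewhere as well. The trio miR-23a, miR-27a and miR-24 on chromosome 8, a cluster active in many tissues, spanned 2.61-fold and held 1.59% ± 0.245 of the pool, with miR-23a at 8.49 ± 0.27, miR-24 at 8.30 ± 0.25 and miR-27a at 7.11 ± 0.34.

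The cell-cycle cluster miR-17-92 was read in part. Of its 11 strands on the array, 4 were detected on all 6 arrays and 7 on none. Over all 566 miRNAs these shares were 13.6% and 78.1%. The undetected strands were miR-17, miR-18a and the star strands miR-17*, miR-18a*, miR-19a*, miR-20a* and miR-92a*. miR-19b had a level of 7.53 ± 0.25, miR-92a 6.85 ± 0.11, miR-20a 6.34 ± 0.12 and miR-19a 5.12 ± 0.24, while miR-17 and miR-18a from the same cluster were not well above background. The cluster held 0.810% ± 0.0830 of the pool and the related miR-106b-25 cluster held 0.228% ± 0.0183.

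Among the cell-type lists, the hepatocyte list held the largest share of the signal. The lists differ in length, and their shares are of signal and not of cells. Of all 566 miRNAs on the array 13.6% were detected on all 6 arrays, the share beside which the counts of each list stand. Of the 12 strands on the hepatocyte-enriched list, 8 (66.7%) were detected on all 6 arrays, and these were the main strands of miR-122, miR-22, miR-192, miR-148a, miR-194, miR-101b, miR-101a and miR-378. The 4 remaining strands were miR-22* (5 arrays), miR-101a*, miR-148a* and miR-378* (no array). The list held 47.5% ± 3.28 of the pool, most of it from miR-122, which alone held 34.8% of the pool. miR-22, also a miRNA of muscle, held 6.84%. Members and lists were chosen with earlier results of these data known, so these values describe the list and do not test it. In bulk tissue, fewer cells of a type and less RNA per cell cannot be told apart.

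The erythroid list, miR-451, miR-144 and miR-486, held 6.41% ± 2.63 of the pool, with miR-486 detected on 2 arrays only. The endothelial strand miR-126-3p had a level of 9.50 ± 0.14 and its list held 1.43% ± 0.121. Of the 9 leukocyte strands, 3 (33.3%) were detected on all 6 arrays: miR-142-3p, shared by blood cell lineages, at 7.98 ± 0.39, the myeloid miR-223 at 6.09 ± 0.28 and miR-146a, a brake on inflammatory signalling, at 5.17 ± 0.19. The lymphocyte miRNAs miR-150 and miR-155 were detected on none.

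Of the 8 strands on the mesenchymal and smooth muscle list, miR-199a-3p (6.64 ± 0.33), known from hepatic stellate cells and fibroblasts, was detected on all 6 arrays; this is 12.5% of the list, close to the share over the whole array. miR-143 was detected on 5, miR-199b* on 2 and miR-199a-5p on 1, and miR-145 and miR-214 on none. The list held 0.284% ± 0.0889 of the pool.

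Untreated control replicate 1 had the smallest share of all 4 of these lists that are not hepatocyte lists, with 2.61% erythroid, 1.24% endothelial, 0.482% leukocyte and 0.186% mesenchymal signal. The same liver had the largest hepatocyte-enriched share, 53.8%, against 45.0% to 48.1% in the other 5. The shares of a pool sum to a fixed total, so these values are not independent of each other, and their cause was not tested.

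**Figure D3:**
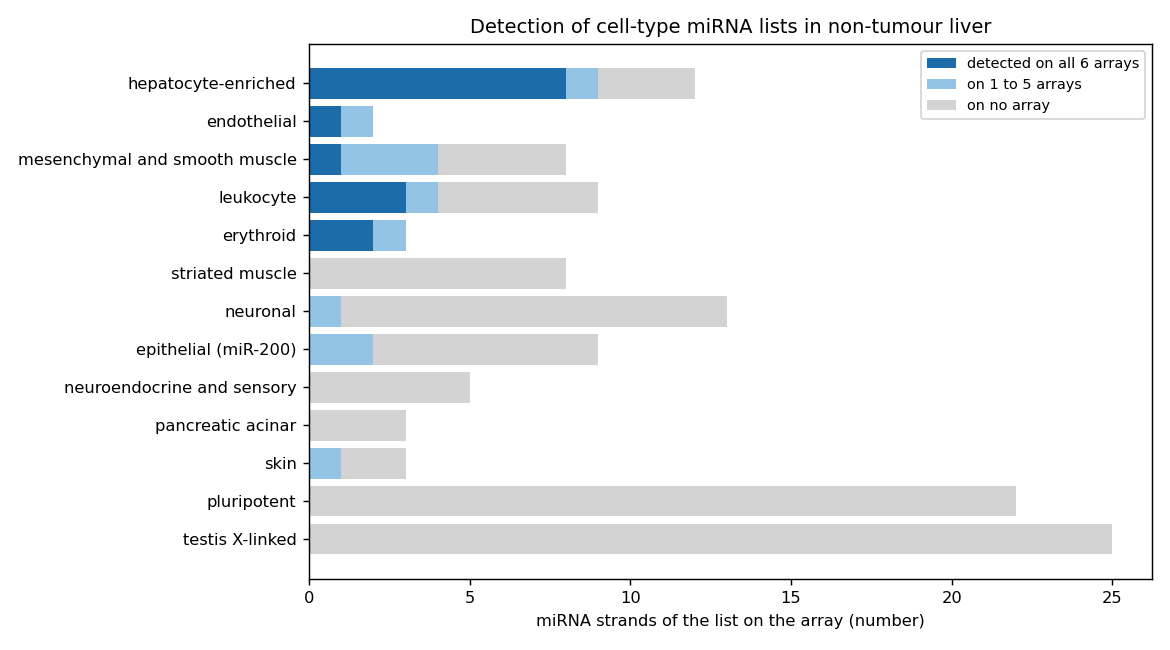
Bars give the number of miRNA strands of each cell-type list on the array, split into those detected on all 6 arrays, on 1 to 5 arrays and on no array. Detection on all 6 is limited to the first 5 lists, with 8 of 12 hepatocyte-enriched strands, and the lists for striated muscle, pancreas, neuroendocrine, pluripotent and testis miRNAs are empty.

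Whole groups of miRNAs known from other tissues stayed at background in these livers. Of all 566 miRNAs 78.1% were detected on none of the 6 arrays, so an empty list of a few strands is not unusual and says nothing particular to its tissue. None of the 8 striated muscle strands (miR-1, miR-133a, miR-133b, miR-206, miR-208a, miR-208b, miR-499), none of the 5 neuroendocrine and sensory strands, including the islet miRNA miR-375 and miR-182, and none of the 3 pancreatic acinar strands (miR-216a, miR-216b, miR-217) was detected on any of the 6 arrays. The 22 pluripotent strands of the miR-290 to miR-295 and miR-302 to miR-367 clusters and the 25 X-linked testis strands, such as miR-463 and miR-465a-3p, were likewise at 0 detected. The liver's own dim miRNAs set the depth of this statement. The lowest signal of a single detected probe was 4.61 to 5.44 on the log2 scale, depending on the array. A miRNA whose probes were all dimmer than that would not be seen. These are values of probes, and the level of a detected miRNA can be lower, since it averages in probes at the floor.

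Near-empty lists had a few weak members. Of 13 neuronal strands, miR-7a was detected on 5 arrays at 4.93 ± 0.12, and miR-124 and the other 11 on none. Of 9 strands of the epithelial miR-200 family, which keeps epithelial cells from turning mesenchymal and marks bile duct cells in liver, miR-200b was detected on 3 arrays and miR-200a on 1, while miR-200c and miR-141 were detected on none. The skin miRNA miR-203 was detected on 2 arrays. Of 23 strands of the rodent Sfmbt2 cluster, miR-467b and miR-466f-3p were detected on 1 array each.

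The imprinted Dlk1-Dio3 cluster, which is read from the maternal chromosome, differed between livers. Of its 71 strands on the array, miR-494 was detected on all 6, 14 on some and 56 (78.9%) on none, a share close to the 78.1% of all miRNAs on the array. Of the 71, the number detected was 9, 2 and 15 in phenobarbital controls 4, 5 and 6 and 1 in each of the 3 untreated controls. Of all 566 miRNAs, the same arrays detected 85, 99 and 101, and 92, 102 and 93 in untreated controls 1 to 3. Set against these totals, phenobarbital controls 4 and 6 were near the array-wide share and the other 4 livers below it. miR-379 had levels of 5.91 and 6.34 in phenobarbital controls 4 and 6, and miR-136 had 5.81 and 6.28 in the same livers. miR-379 was at the floor of 4.63 in the other 4 livers, and miR-136 lay at 4.72 in phenobarbital control 5 and at the floor in the untreated controls. The signal of these 2 miRNAs thus came mostly from 2 of 3 livers of the phenobarbital arm, and 3 livers per arm were not tested against each other here.

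miR-494 followed another pattern than the rest of its cluster. Its levels were 5.99, 5.65 and 6.61 in phenobarbital controls 4 to 6 and 6.90, 6.12 and 12.28 in untreated controls 1 to 3. In untreated control 3 it ranked 3rd on the array and made up 9.40% of the pool, against ranks 38 to 62 in the other 5. Both of its probes were high there, at 12.79 and 11.78. Its mean was 7.26 ± 2.50 over 6 livers and 6.25 without untreated control 3, with an SD of 0.50.

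**Figure D4:**
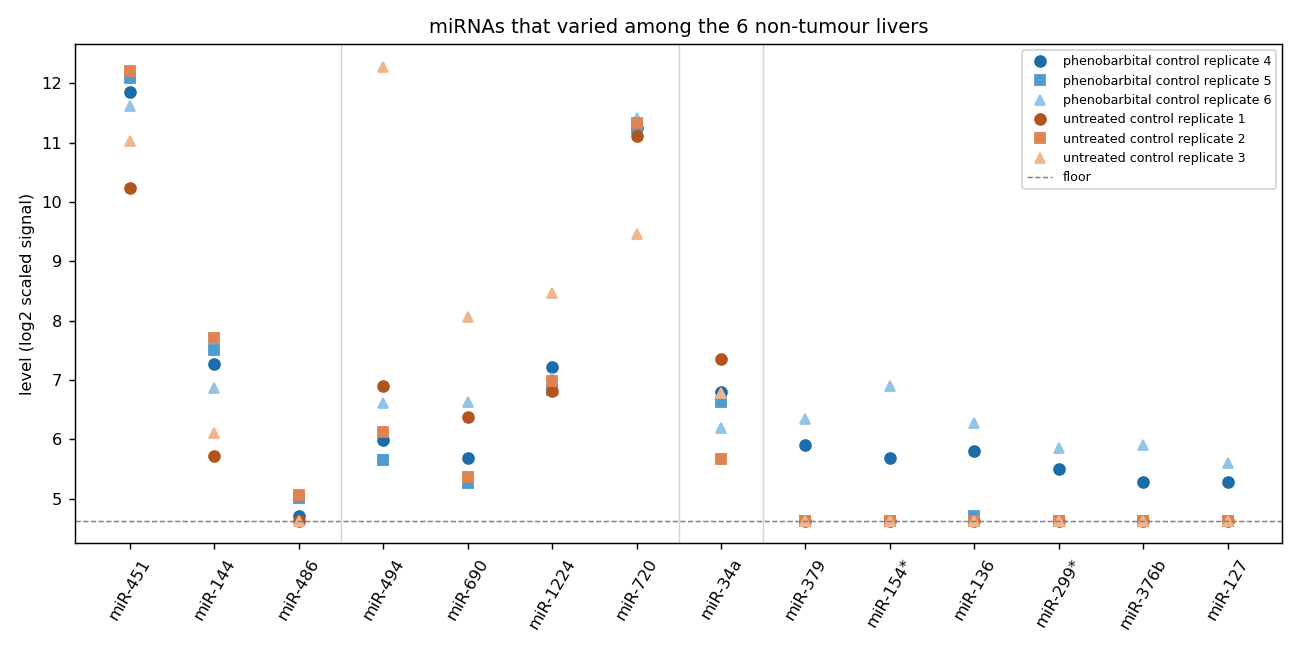
Levels (log2 scaled signal) of erythroid miRNAs, of 4 miRNAs that set untreated control replicate 3 apart, of miR-34a and of 6 members of the Dlk1-Dio3 cluster; symbols are the 6 arrays and the dashed line is the floor of 4.63. miR-494 stood at 12.28 in 1 liver and at 5.65 to 6.90 in the others, and the 6 Dlk1-Dio3 members rose above the floor in phenobarbital controls 4 and 6, with miR-136 also slightly above it in replicate 5.

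The other variable miRNAs were few. Besides miR-494, the SD exceeded 0.5 for miR-690 (1.04), miR-144 (0.79), miR-451 (0.75), miR-720 (0.75), miR-1224 (0.63), miR-34a (0.58) and miR-689 (0.51). Without untreated control 3, 4 miRNAs remained above 0.5, with miR-451 highest at 0.80, miR-144 at 0.79, miR-34a at 0.64 and miR-690 at 0.61. miR-34a, a p53 target, ran from 5.66 in untreated control 2 to 7.35 in untreated control 1, with 6.19 to 6.81 in the other 4. miR-1224 lay at 8.47 in untreated control 3 and at 6.82 to 7.22 in the others, and 1 of its probes was at the floor on all 6 arrays.

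The strands lost after duplex unwinding made up a small part of the detected signal. Of 115 star strands on the array, 2 were detected on all 6 arrays, 7 on some and the rest on none. Star strands held 0.376% ± 0.161 of the pool, from 0.263% to 0.693%. The share was 0.571% with normexp background correction and 4.61% with undetected miRNAs, set to the floor or near it, in the pool. Of all star strands 1.74% were detected on all 6 arrays, against 16.6% of the 451 other entries. The highest star share was in phenobarbital control 6, the liver with the most Dlk1-Dio3 strands, where miR-154* reached 6.90. Of the 6 arrays, this array also had the most outlier spots, 473. Its spots of the same probe varied most, with a median coefficient of variation (CV) of 9.97%. Whether this bears on its star share was not tested.

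Both strands of a hairpin were rarely seen together. The 2 star strands detected on all 6 arrays, with their seeds in capitals, were these.
miR-30a*: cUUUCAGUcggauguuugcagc
miR-140*: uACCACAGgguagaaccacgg
miR-30a* had a level of 5.29 ± 0.12 and its partner miR-30a a signal 6.69-fold higher. miR-140* had a level of 5.12 ± 0.13 with 1 probe at the floor throughout, so no fold is given against miR-140, known from cartilage, at 6.11 ± 0.30. Of 111 pairs of a strand and its star, 37 had a strand detected on all 6 arrays, 33 of these had no detection of the partner on any array, and in 54 pairs neither strand was detected.

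The bright miRNAs set the widest bounds on the partner strand. miR-22* was detected on 5 arrays, at 5.03 ± 0.10 (SD, n = 5), and on these miR-22 was brighter by 6.75 ± 0.02 on the log2 scale. miR-21* was detected on none of the 6 arrays, so miR-21 was at least 156-fold brighter. By the same bound let-7f was at least 55.5-fold and let-7a at least 48.1-fold brighter than its star strand. Over the 38 pairs whose partner was detected on no array, the bound ran from 1.17-fold to 156-fold with a median of 5.28-fold, and it was over 10-fold for 15 of them.

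For hairpins whose strands carry the names 5p and 3p, 8 of 62 pairs had a strand detected on all 6 arrays, and no pair had both. miR-126-5p was detected on 3 arrays, and on these miR-126-3p was 25.4-fold to 26.5-fold brighter. miR-199a-5p was detected on 1 array, where miR-199a-3p was 4.23-fold brighter. The pair of miR-139 went the other way on the 1 array that detected miR-139-3p. There miR-139-5p minus miR-139-3p was -0.57 on the log2 scale, with 1 probe of miR-139-5p at the floor throughout. miR-142-3p was at least 8.49-fold brighter than miR-142-5p. Star strands that were brighter than their partner and detected were miR-154*, miR-299*, miR-411* and miR-135a*, each on 1 or 2 arrays only, and the first 3 belong to the Dlk1-Dio3 cluster.

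**Figure D5:**
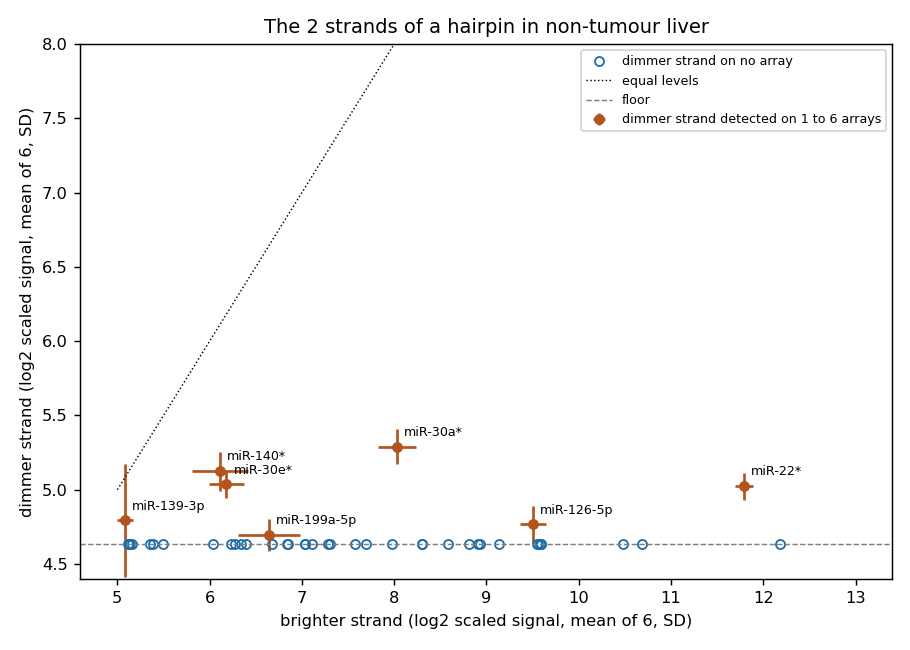
Each point is a hairpin with a strand detected on all 6 arrays; the horizontal axis gives the level of the brighter strand and the vertical axis that of the dimmer strand (log2 scaled signal, mean of 6 livers, bars are the SD). Open points mark partners detected on no array, which lie at or next to the floor of 4.63, and filled points lie below the dotted line of equal levels, with miR-22* at 5.02 opposite miR-22 at 11.79.

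The base composition of the detected miRNAs is described beside that of the whole RefSeq table, with no test. Of the 67 with a sequence, 45 (67.2%) began with U, against 41.0% of the 1674 distinct mature sequences in the table, and U is the base that Argonaute binds most readily at the 5′ end. Their GC content had a median of 42.9%, against 52.2% in the table. The table holds 1674 sequences and the array 566 mouse miRNAs. Neither the share with U nor the GC content was computed over the array's own entries. Across the 67 miRNAs the level correlated with GC content at Spearman's rho of -0.426, a description over miRNAs that share arrays and are not independent replicates, and probe binding also depends on GC.

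Against the tumours, 4 properties of the whole pool were compared over samples with exact two-sided permutation tests of the difference in means (6 non-tumour livers, 10 tumours, 8008 allocations). Non-tumour livers detected 95.3 ± 6.53 miRNAs and tumours 104.6 ± 10.8, and the exact permutation p was 0.0887. The share of miR-122 was 34.8% ± 2.77 in non-tumour liver and 29.9% ± 5.58 in tumours, with an exact permutation p of 0.0547. After Benjamini-Hochberg adjustment over the 4 tests both values were 0.177, above the threshold of 0.05. The share of each array's 10 brightest miRNAs (74.5% and 73.9% ± 3.36) and of star strands (0.376% and 0.520% ± 0.339) gave adjusted exact permutation p-values of 0.677 and 0.477.

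The 7 Ctnnb1 tumours and 1 Ha-ras tumour shared a slide that held no control, so slide and tissue cannot be told apart for them. On the only slide with both tissues, the 2 tumours were Ha-ras tumours and no Ctnnb1 tumour was present. Its values therefore differ from those over all samples in tumour genotype as well as in slide. The 3 non-tumour livers and 2 tumours on it had mean miR-122 shares of 35.7% and 35.5% and means of 92 and 91 detected miRNAs. On this slide the top 10 share was 74.8% in the non-tumour livers and 78.8% in the tumours, a difference of -4.02 percentage points, opposite in sign to the difference over all samples.

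Of the 442 miRNAs not detected in any of the 6 livers, 26 were detected on at least 1 tumour array and 416 on none of the 16 arrays. These are 4.59% and 73.5% of the 566 miRNAs on the array. The 10 tumour arrays gave more chances of detection than the 6 liver arrays, and the count in the other direction is not given. Those seen on the most tumour arrays were miR-350 on 8 of 10, miR-96, a member of the sensory miR-183 cluster, on 7, miR-680 on 6 and miR-125a-5p on 5. These 4 were picked for their detection in tumours after the values were seen, and they carry no test.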

How the data were processed

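MiRNA arrays of 6 non-tumour livers were described, with 10 tumours as comparison. The authors deposited background-subtracted spot intensity values from Agilent Feature Extraction 10.7.3.1, per the file headers. They also deposited a table of log2 values for 146 mouse miRNAs, used as an alternative only; R 2.14.1 is named in the submitters' processing notes, but not how these values were normalised.

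Here, processed spot signals were used. Control, viral and outlier spots were left out, and spots of a probe were averaged. Each array was scaled by a 75th percentile, taken over 117 probes that every array of the series detected, to a common value of 609. Values under 24.8, the arrays' median lowest detected signal, were set to it before log2. Probes were averaged per miRNA. Before scaling the percentiles of the 6 arrays were 386 to 644, and spots of the same probe had a median CV of 6.61% to 9.97%; these and the number of arrays limit precision. Bounds on undetected strands set the strand at its own value or at the lowest signal that array detected, whichever was higher.

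Array names were matched by hand to the RefSeq table. Genes were named by rule: the 20 brightest, up to 6 bright star strands, up to 4 members per list, the 5 largest and smallest SDs and the 3 dimmest; miR-1224, miR-689 and others outside it were named after their values were seen. Members and lists were chosen with earlier results of these data known. Python 3.11.15, scipy 1.17.1 and limma 3.58.1 (background correction only, as an alternative) were used, and the share and scaling code was tested on simulated data. Alternatives were the joining of probes, background, pool, detection rule, deposited table, left-out samples and a replicate block.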

Additional observations from a re-analysis of the deposited data

Results flagged for a closer look

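In 10 of 76 sets of values that were tested, the highest or lowest array lay farther from its nearest neighbour than Dixon's critical value allows. Each flagged set was a miRNA level or a pool property over the same 6 non-tumour livers. Chance flags about 1 in 20 sets, and the miRNAs of an array are not independent of each other. Untreated control replicate 3 was the outlying liver for 3 of the 10 flagged sets, with miR-494 at 12.28 (others 5.65 to 6.90), miR-720 at 9.46 (others 11.11 to 11.42) and miR-19b at 7.06 (others 7.52 to 7.75).

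Untreated control replicate 1 was the lowest liver for 6 of them: miR-126-3p at 9.23 (others 9.48 to 9.60), miR-140* at 4.87 (others 5.10 to 5.23), miR-16 at 6.89 (others 7.28 to 7.46), miR-25 at 4.94 (others 5.27 to 5.36), miR-199a-3p at 6.01 (others 6.64 to 6.97) and miR-142-3p at 7.22 (others 7.96 to 8.32). These include markers of endothelial, mesenchymal and blood cells, and this liver also had the lowest miR-451. Phenobarbital control replicate 6 had a star strand share of 0.693%, against 0.263% to 0.376% in the other 5 livers. No cause was tested for any of these values.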

How the results depend on the processing

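The shares of miR-122, of the top 10, of star strands and of let-7 moved by less than the spread between livers when probes were joined on the linear scale, with the software's total gene signal and with the deposited table. Taking all mouse miRNAs as the pool, undetected ones included, changed all 4: miR-122 to 28.4%, the top 10 to 60.8%, star strands to 4.61% and let-7 to 9.65%. By construction this adds a floor value for every undetected miRNA. Background correction with normexp moved the top 10 share to 71.5% and the star share to 0.571%, and the cause was not tested. With the erythroid list and miR-720 left out of the pool, a setting chosen after seeing the data, miR-122 rose to 38.9% and let-7 to 13.2%, since the pool is smaller. The software's own detection flag gave 92 miRNAs on all 6 arrays, all 77 among them.

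Leaving out each liver in turn gave 77 to 82 miRNAs, a miR-122 share of 33.8% to 35.4%, a top 10 share of 74.4% to 74.7%, a star share of 0.312% to 0.399% and a let-7 share of 11.6% to 12.1%. Leaving out each of the 16 samples gave differences, non-tumour minus tumour, of -11.7 to -7.20 detected miRNAs, 3.62 to 5.58 percentage points for miR-122, -0.0103 to 1.27 for the top 10 and -0.208 to -0.0576 for star strands. In a replicate block of 6 pairs with the same arm and number, the differences were -3 miRNAs, 2.87, -1.01 and -0.0048 percentage points in that order, so that of the top 10 share was reversed; exact sign-flip p-values were 0.531, 0.188, 0.5 and 0.969, where 0.0312 is the smallest possible. The deviations of same-numbered samples correlated at -0.712 to 0.596. These values cannot show whether samples with the same number belong together, so the block pairs them by label only. Of 80 ranks of the 20 brightest miRNAs under other settings, 65 moved by less than their spread and 15 by more, and 19 or 20 of the top 20 were shared. Signal over background limits all statements on absent miRNAs.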
